A study of Mus musculus with 11 samples.

Results

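Chromosome 1 of the mouse was followed across 11 low-coverage whole-genome sequencing (WGS) libraries of mouse embryonic stem cells (mESC). The chromosome was covered by 3838 bins, which were all rows of the deposited depth tables that carried its name, out of 52958 bins in all and 47924 on the 19 autosomes. The bins ran from base 3000001 to base 195371971 of the mm10 assembly and were between 49880 and 52440 bases long. Depth was divided by the median autosomal depth of its library (relative depth) and compared as a log2 ratio with the mean of the 3 long-term Ctrl libraries, so a ratio of 0 means the same share of reads as in those libraries.

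Ctrl cells carried Cre-ERT2 and the Rosa26-LSL-H2b-Egfp reporter, and Tet iTKO cells carried in addition the Tet1,2,3 fl/fl alleles. Cre-ERT2 was driven by the human ubiquitin C promoter. Per the paper, tamoxifen brings Cre-ERT2 into the nucleus, where it deletes the floxed Tet exons. The Tet iTKO pre-treatment library, labelled as not activated, therefore stands for cells before that deletion. Each genotype was sampled before treatment (1 library), after acute treatment with 1 µM tamoxifen for 2.5 days and 4 further days of culture (1 library), and as tamoxifen-treated long-term monoclonal populations kept for 30 days (3 libraries). Dnmt TKO cells, in which Dnmt1, Dnmt3a and Dnmt3b are knocked out, gave 1 library. Cultures were kept in 2i medium over mouse embryonic fibroblast feeders, and cells were sorted for CD326 and against Thy1.2 before DNA extraction, and the Ctrl and Tet iTKO cells also for GFP, which the labels state for the pre-treatment cells too. A long-term library stands for 1 clone, and the labels do not say whether the clones of a group came from separate derivations, so p-values measure only the spread between these libraries.

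The libraries held 555 to 812 megabases of mapped sequence and a median of 215 to 314 reads per chromosome 1 bin. The 4 pre-treatment and acute libraries, called early here, differed from the others on the Y chromosome. Its median relative depth was 0.0269 to 0.0381 in them and 0.457 to 0.558 in the 7 long-term libraries. The X chromosome lay between 0.560 and 0.592 in all libraries. Culture stage and the cell material behind the Y difference cannot be told apart. The bins over Tet1, Tet2, Tet3, Dnmt1, Dnmt3a and Dnmt3b had relative depths of 0.945 to 1.23 in every library and are larger than the deleted exons, so the knockouts were not checked.

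Read depth in bulk DNA counts how many copies of a region the average cell carries. TET proteins oxidise 5-methylcytosine and DNMT proteins place it, and errors of mitosis can leave a daughter cell with an extra or a missing chromosome. Breaks that are repaired wrongly can remove a part of a chromosome arm instead, and a clone grown from such a cell carries the loss in every cell. Depth also departs from the average where the reference genome holds fewer or more copies of a repeated sequence than the cells do.

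The sequences below mark the places on chromosome 1 to which the results return, and they come from the GRCm38 (mm10) genome sequence, and for miRNAs from RefSeq with the same build. The pair shown at each end of a lowered stretch in 1 Tet iTKO clone is 150 bases around the border between 2 bins, with the side of the lowered bin in capitals. These are bin borders, not sequenced breakpoints.
Left border, chr1:23066311-23066460, plus strand: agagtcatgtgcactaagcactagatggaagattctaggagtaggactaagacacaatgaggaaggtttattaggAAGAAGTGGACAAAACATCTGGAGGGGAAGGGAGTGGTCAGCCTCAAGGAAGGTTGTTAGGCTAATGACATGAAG
Right border, chr1:31864478-31864627, plus strand: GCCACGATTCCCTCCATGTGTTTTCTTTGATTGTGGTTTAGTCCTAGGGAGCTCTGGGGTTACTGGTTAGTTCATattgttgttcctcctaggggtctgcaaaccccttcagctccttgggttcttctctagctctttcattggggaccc

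Inside the stretch, chromosome 1 holds a copy of mitochondrial DNA that is nearly identical to the mitochondrial genome, and 121 bases of it are shown against the mitochondrial genome because the bin that holds it stood far above all other bins. The capital marks the only base that differs in this window, T9461C, counted from the start of the mitochondrial genome with the mitochondrial base first.
Chromosome 1 copy, chr1:24613057-24613177, minus strand: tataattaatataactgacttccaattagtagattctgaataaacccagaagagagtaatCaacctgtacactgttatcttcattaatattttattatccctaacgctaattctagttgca
Mitochondrial genome, bases 9401 to 9521, plus strand: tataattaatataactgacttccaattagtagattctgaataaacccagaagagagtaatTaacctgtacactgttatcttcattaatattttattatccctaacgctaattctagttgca

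The stretch also holds 3 miRNA genes for which RefSeq gave mature sequences, with the seed (bases 2 to 8) in capitals. The 5p arms of miR-30a and miR-30c share their seed, so these neighbours belong to the same seed family, and the other arms each have a seed of their own.
mmu-miR-30a-5p, chr1:23272274-23272295: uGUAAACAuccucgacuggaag
mmu-miR-30c-5p, chr1:23291714-23291736: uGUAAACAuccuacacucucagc
mmu-miR-30a-3p, chr1:23272315-23272336: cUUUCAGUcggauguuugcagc
mmu-miR-30c-2-3p, chr1:23291754-23291775: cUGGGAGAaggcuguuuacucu
mmu-miR-6342, chr1:29421552-29421573: cAGCAGCAaucuggucuuugag

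Chromosome 1 as a whole was present at the autosomal average in every library. The median log2 ratio over its bins was -0.0018, 0.0014 and -0.00051 in the 3 long-term Ctrl libraries and -0.0036, -0.011 and -0.0061 in the 3 long-term Tet iTKO libraries. It was -0.013 and -0.0049 in the pre-treatment and acute Ctrl libraries, -0.0051 and -0.0056 in the corresponding Tet iTKO libraries, and -0.012 in Dnmt TKO. The 3 long-term Tet iTKO values lay below the 3 Ctrl values, which are narrower because these libraries are also the reference. The difference of the means was -0.0065 ± 0.0035 (SD of the Tet iTKO libraries, n = 3; SD of Ctrl 0.0016, n = 3; exact permutation test, two-sided, p = 0.1, the smallest p that 3 libraries against 3 allow; 0.15 after Benjamini-Hochberg adjustment over 3 tests). Without the bins from 22 to 33 Mb the difference was -0.0035 (exact permutation p = 0.1). The autosomes together had medians between -0.011 and 0.010 in Tet iTKO long-term replicate 2 and between -0.021 and 0.412 in Dnmt TKO, so chromosome 1 stayed near 0 in the library in which another autosome did not.

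The one long departure on chromosome 1 was found in Tet iTKO long-term replicate 2, where a stretch of 176 bins (4.59% of the chromosome's bins) had lower depth, except in the bin of the mitochondrial copy. The stretch had been named from earlier results of these data, as an interval of 181 bins from base 23016396 to base 32064510, and its values are a description without a test. With a threshold of -0.40, set from its own mean, the lowered bins ran from base 23066386 to base 31864552, a length of 8.80 Mb. Over 175 of these bins, without the bin of the mitochondrial copy, the mean log2 ratio of replicate 2 was -0.83, which is 56.3% of the long-term Ctrl depth. The other long-term Tet iTKO clones stood at -0.013 in replicate 1 and 0.0078 in replicate 3. The 3 long-term Ctrl libraries were at -0.0026, 0.011 and -0.015. The early libraries were at -0.041 and -0.0044 in Ctrl and at -0.044 and -0.0099 in Tet iTKO, before and after acute treatment, and Dnmt TKO was at -0.016. The 10 other libraries thus spanned 97.0 to 101% of the Ctrl depth, and replicate 2 stood apart from all of them.

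**Figure D1:**
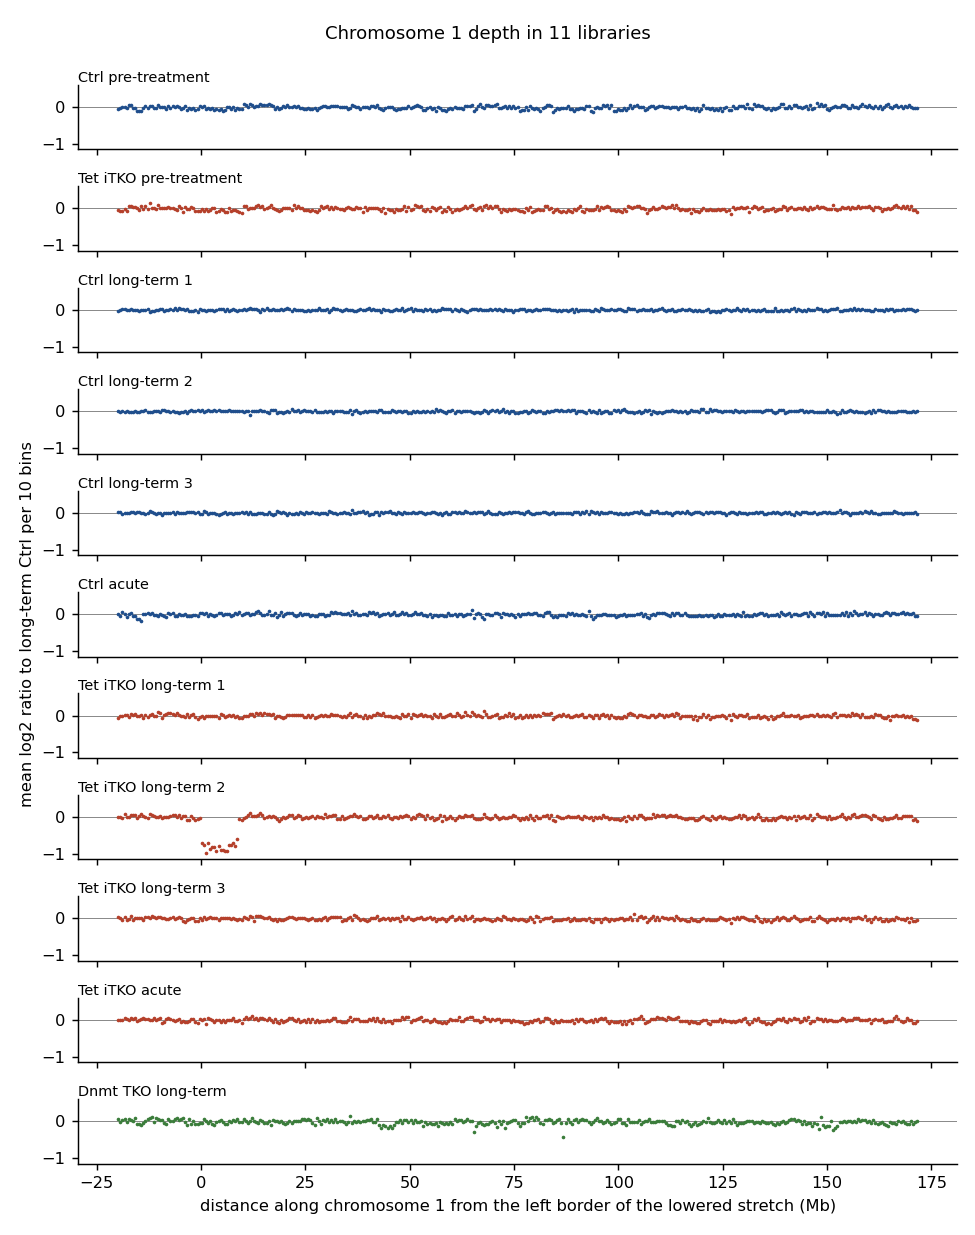
Mean log2 ratio to the long-term Ctrl libraries (y axis) in consecutive groups of 10 bins along chromosome 1, by distance from the left border of the lowered stretch in Mb (x axis), with 1 panel for each of the 11 libraries. Only Tet iTKO long-term 2 has a block of lowered points, just right of 0, and Dnmt TKO has several isolated points below the line.

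The loss was read bin by bin. All 175 bins had a lower relative depth in replicate 2 than in any of the other 10 libraries, against 315 (8.60%) of the 3662 chromosome 1 bins outside. At a ratio of -0.4 or lower stood 172 of the 175 bins in replicate 2, 1 bin in the Tet iTKO pre-treatment library and none in the other libraries. The 175 bins were selected by the low values of replicate 2, at a threshold of -0.40. Its counts within the stretch therefore largely follow from that selection and are no separate support. The median relative depth of the stretch was 0.543 in replicate 2 and 0.935 to 0.985 elsewhere. The X chromosome of the same library had a relative depth of 0.569, so the lowered stretch of chromosome 1 and the X chromosome had similar depths in this clone.

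**Figure D2:**
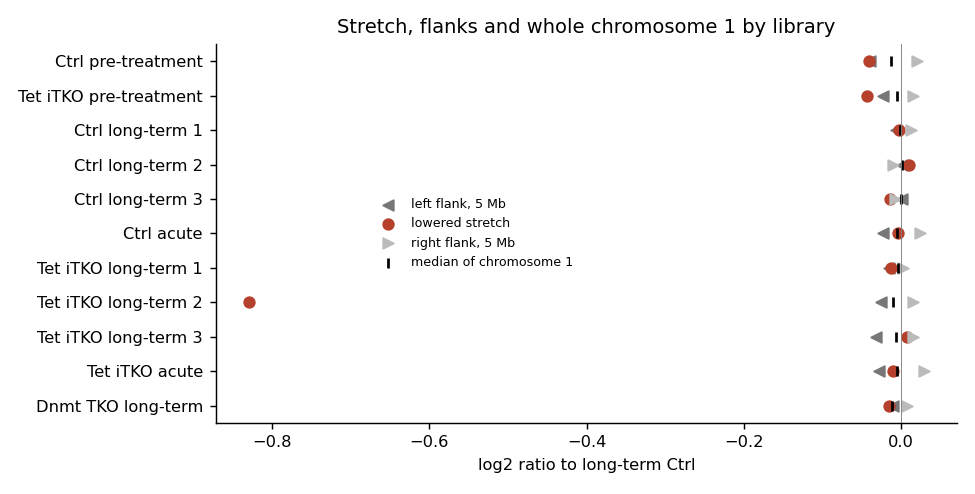
Log2 ratio to long-term Ctrl (x axis) of the lowered stretch, its 5 Mb flanks and the median of chromosome 1 in each library (y axis), where points are means over bins, or the median over bins for the whole chromosome. The stretch of Tet iTKO long-term 2 lies at -0.83, and every other point lies between -0.044 and 0.029.

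Depth was not uniform within the stretch. Single bins of replicate 2 ranged from -1.31, at bases 25165948 to 25215937 in Adgrb3, to -0.30, at bases 23716250 to 23766239 in B3gat2. The SD over the 175 bins was 0.194, while counting noise at a median of 131 reads per bin would give 0.137. In the other 10 libraries the SD over the same bins was 0.0801 to 0.116, lowest in the long-term Ctrl libraries, which are also the reference. The left, middle and right parts of the stretch, of near equal size, had means of -0.83, -0.87 and -0.79. Neighbouring bins correlated at r = 0.074 across bins in replicate 2, and the correlation of its ratio with GC content was 0.224 across the same bins, which share a library and are not independent replicates.

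The left border was sharp at the scale of a bin. The bin before it, at bases 23016396 to 23066385, had a ratio of -0.092, and the bin after it had -0.82. At the right border the ratios were -0.99, -0.64 and -0.48 in the last 3 lowered bins and -0.22, -0.25 and -0.075 in the next 3. Single bins ranged from -1.31 to -0.30 in the stretch and down to -0.27 in the right flank. Whether the right border was less sharp than the left can therefore not be told from these bins. Bins of replicate 2 at -0.26 or below also occurred further out, as at bases 32064511 to 32114500, within the range of single bins of its flank. A fixed threshold of -0.25 and a running median of 3 bins gave the same first and last lowered base. At the right border this was a near tie, because the bin at bases 31914543 to 31964531 had -0.2493. The rule allowed single bins above the threshold, so a slightly higher one could have moved the right border to that bin.

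**Figure D3:**
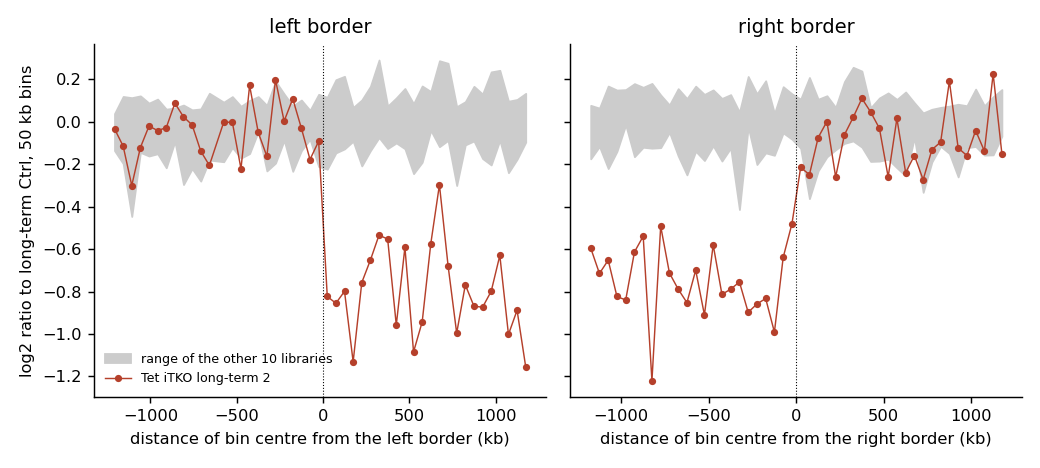
Log2 ratio to long-term Ctrl of single bins (y axis) by the distance of the bin centre from the left and the right border in kb (x axis), for Tet iTKO long-term 2 (points) and as the range of the other 10 libraries (grey). The points drop within 1 bin at the left border and rise across the right border, with single bins scattered on either side.

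The flanks of 5 Mb were near the Ctrl depth. In the left flank the mean ratio was -0.016, -0.026 and -0.032 in long-term Tet iTKO and -0.0069, 0.00077 and 0.0014 in long-term Ctrl, a difference of -0.023 (exact permutation p = 0.1, adjusted 0.15). In the right flank it was 0.0017, 0.015 and 0.015 in long-term Tet iTKO and 0.012, -0.010 and -0.0081 in long-term Ctrl, a difference of 0.013 (exact permutation p = 0.2, adjusted 0.2). Replicate 2 lay between the other 2 clones in the left flank. The first 40 bins of the chromosome, next to the centromere, had means of -0.049 to 0.039 over the 11 libraries. In the last 40 bins, at the other end, the mean was -0.084, -0.062 and -0.043 in long-term Tet iTKO and 0.0012, 0.0082 and -0.018 in long-term Ctrl, a difference of -0.060 (exact permutation p = 0.1, 0.2 after adjustment over both ends, compared after their values were seen). It was -0.046 and -0.054 in early Tet iTKO, -0.028 and -0.0069 in early Ctrl and -0.025 in Dnmt TKO. The 5 Tet iTKO libraries were thus the lowest of the 11, and the pre-treatment library, from before Tet deletion, was among them at -0.046.

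The lowered stretch was poor in genes. It overlapped 19 protein-coding entries of GENCODE M21 with 18 different symbols, 2.16 per Mb, whereas the rest of the chromosome had 6.49 per Mb. Its bins had a mean GC content of 38.1% against 41.3% outside, and 41.5% of their bases were masked as repeats against 34.3%. Other annotated genes in it were 28 processed pseudogenes, 8 lincRNA genes, 7 miRNA genes and 4 snoRNA genes, among 108 in all.

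All 18 genes of the stretch had a lower relative depth in replicate 2 than in each of the other 10 libraries, with log2 ratios of -1.01 to -0.53 and a median of -0.79. Gene values are made of the bins that were selected for low values in replicate 2. The lower depth of the genes therefore largely follows from that selection and is no separate support. Relative depth of a gene is the mean of the bins it overlaps, so short neighbours share a bin. Phf3 (chromosome 1, 30802339 to 30873921, minus strand), a PHD finger protein that binds RNA polymerase II, was at 0.642 in replicate 2 and at 1.08 to 1.20 in the other libraries. Ptp4a1 (30940302 to 30949770, minus strand), a phosphatase of the PRL family, was at 0.719 and 0.986 to 1.25. Smap1 (23844846 to 23922317, minus strand), which activates the GTPase function of ARF6 in endocytosis, was at 0.609 and 0.995 to 1.13. These 3 genes overlapped 1 to 3 bins each.

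Genes of metabolism and transport, read from the same selected bins, were also lower in replicate 2. Sdhaf4 (23995939 to 24005656, minus strand), an assembly factor of succinate dehydrogenase, had a relative depth of 0.566 in replicate 2 and of 0.926 to 1.15 in the other libraries. Lmbrd1 (24678630 to 24766301, plus strand), the lysosomal cobalamin exporter, had 0.506 and 0.868 to 1.05. B3gat2 (23761753 to 23849158, plus strand), a glucuronyltransferase, had 0.581 and 0.955 to 1.10. Of the genes of the extracellular matrix and cell surface, Adgrb3 (25067476 to 25829707, minus strand), an adhesion G protein-coupled receptor, was covered by 16 bins and had 0.532 against 0.931 to 0.978. Col9a1 (24177610 to 24252684, plus strand), a chain of collagen IX, had 0.50 against 0.925 to 1.06.

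Col19a1 (24261890 to 24587472, minus strand), which encodes collagen XIX, differed from its neighbours in level, with 1.10 in replicate 2 and 1.41 to 1.70 in the other libraries. It was the only gene of the stretch above 1 in replicate 2, and 1 of its 8 bins is the bin of the mitochondrial copy. The remaining genes of the stretch were 4933415F23Rik, Ogfrl1, Fam135a, 4931408C20Rik, Gm597, AC153137.1, 4931428L18Rik, Lgsn and Pih1d3, of which Pih1d3 acts in the assembly of axonemal dynein. Their relative depths in replicate 2 ran from 0.475 in Gm597 to 0.754 in AC153137.1. The bin with both miR-30 genes had a relative depth of 0.649 in replicate 2 and 0.954 to 1.19 elsewhere, and the bin of Mir6342 had 0.392 and 0.872 to 1.08.

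The neighbouring genes bounded the loss. Rims1 (22286251 to 22805994, minus strand), which organises the presynaptic active zone, had a log2 ratio of -0.048 in replicate 2, and Kcnq5, a potassium channel further left, had -0.054. On the right, Khdrbs2 (32172714 to 32658568, plus strand), an RNA-binding protein, had -0.087, and Prim2, the large subunit of DNA primase, had -0.049. All 4 were within -0.11 to 0.076 in every library. Gm5415, in 1 bin, had -0.16 in replicate 2 and -0.074 to 0.089 elsewhere.

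**Figure D4:**
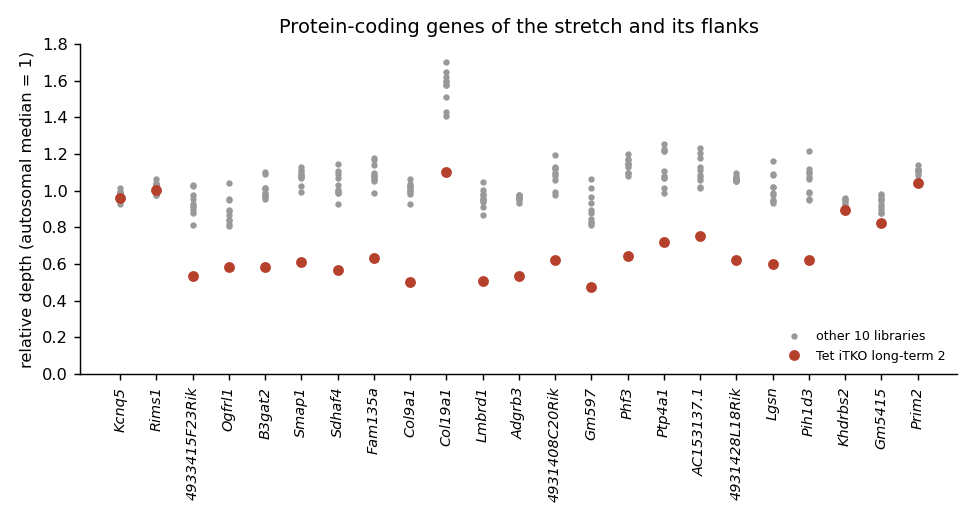
Relative depth, with the autosomal median at 1 (y axis), of the protein-coding genes of the stretch and its flanks in order along the chromosome (x axis), for Tet iTKO long-term 2 (large points) and the other 10 libraries (small points). The large points fall below all small points from 4933415F23Rik to Pih1d3, and Col19a1 is raised in every library.

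The bin from base 24566073 to base 24616062, inside the stretch, had the highest depth of the chromosome in all libraries, with a mean relative depth of 10.2. It was at 10.4, 9.98 and 12.0 in long-term Ctrl and at 10.8, 10.1 and 10.9 in long-term Tet iTKO, and at 8.42 to 11.2 in the 4 early libraries and 9.19 in Dnmt TKO. Replicate 2 was within this range, with a log2 ratio of -0.095, although the bins on either side were lowered. A search of the mitochondrial genome against chromosome 1 found 4654 aligned bases from base 24611535 to base 24616188, on the minus strand, with 99.9% identity, 2 mismatches and 1 gap, equal to mitochondrial bases 6390 to 11042. The next longest match had 1118 aligned bases and 80.4% identity. The mitochondrial bases are 28.5% of the mitochondrial genome, and how many reads of this bin came from mitochondria was not tested.

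In the comparison of long-term Tet iTKO with long-term Ctrl across all autosomal bins (limma, two-sided, Benjamini-Hochberg adjusted p under 0.05), 3 chromosome 1 bins passed, all lower in Tet iTKO, and 346 (9.02%) had an unadjusted p under 0.05. Over all autosomal bins, 0.136% passed (15 bins higher in Tet iTKO and 50 lower) and 6.08% had an unadjusted p under 0.05. The bin at bases 23816229 to 23866218 (B3gat2 and Smap1) had relative depths of 0.916, 0.562 and 1.03 in Tet iTKO and 1.13, 1.08 and 1.19 in Ctrl (log2 difference -0.48, SE 0.11, limma adjusted p = 0.043). The bin at bases 26365698 to 26415687 had 0.867, 0.541 and 0.970 against 1.04, 1.06 and 1.09 (-0.46, SE 0.10, limma adjusted p = 0.046; 0.060 with a GC correction). The bin at bases 30514834 to 30564823 had 1.06, 0.543 and 0.871 against 1.09, 1.22 and 1.12 (-0.52, SE 0.11, limma adjusted p = 0.022). All 3 lay in the stretch, in each the lowest value was that of replicate 2, and without replicate 2, or with a variance trend and robust fit, no chromosome 1 bin passed.

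Most bins of the stretch did not pass. The median difference over the 175 bins was -0.26 with a median SE of 0.11, 3 of them passed and 123 had an unadjusted p under 0.05. The stretch was chosen for the low values of replicate 2, so these counts are no test of the genotypes. The mean ratio there was -0.83 in replicate 2, but -0.013 in replicate 1 and 0.0078 in replicate 3. Of the other 3662 chromosome 1 bins, none passed in limma, 223 (6.09%) had an unadjusted p under 0.05, and the median difference was -0.0049. The long-term groups did not overlap in 429 chromosome 1 bins (11.2%), near the 11.3% of all autosomal bins, and in 16 of the 175 bins of the stretch.

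Comparisons by culture stage found a different place. Long-term Ctrl exceeded early Ctrl in 3 chromosome 1 bins and was lower in none (limma over all autosomal bins, 0.102% of which passed). Of all autosomal bins that passed there, 34 were higher in long-term Ctrl and 15 lower. Early Tet iTKO exceeded early Ctrl in 2 bins (0.0689% of all autosomal bins passed, 23 of them higher in early Tet iTKO and 10 lower). Neither count on chromosome 1 was above the share over all autosomal bins. Long-term against early Tet iTKO gave 0 bins in limma, with 300 (7.82%) at an unadjusted p under 0.05 (of all autosomal bins, 0.0417% passed and 6.15% were under 0.05 unadjusted). The test of whether the genotype difference changed between stages also gave 0, with 235 (6.12%) at an unadjusted p under 0.05 (of all autosomal bins, 0.0835% passed and 5.08% were under 0.05 unadjusted). The early groups hold 2 libraries each, 1 before and 1 after acute treatment, which share the low Y depth. Early Tet iTKO therefore joins cells from before and after Tet deletion.

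Lower depth in early than in long-term Ctrl was clearest in the adjacent bins from base 88197240 to base 88297244. They hold exons of the Ugt1a cluster, whose enzymes conjugate bilirubin, steroids and drugs with glucuronic acid, and the genes Dnajb3, Mroh2a, Hjurp, the chaperone that loads the centromeric histone CENP-A, and part of Trpm8, a cold-sensing channel. In the bin with Hjurp (88262471 to 88277633, minus strand), relative depth was 3.18 and 3.46 in the pre-treatment and acute Ctrl libraries and 4.51, 4.17 and 4.39 in long-term Ctrl (log2 difference 0.39, SE 0.081, limma adjusted p = 0.012). It was 4.60 and 4.39 in early Tet iTKO (0.44 above early Ctrl, SE 0.088, limma adjusted p = 0.014) and 4.31, 4.20 and 4.20 in long-term Tet iTKO. The 2 early Ctrl libraries were therefore the low ones among the 10 Ctrl and Tet iTKO libraries. In the bin before it, with Ugt1a1, relative depth was 3.30 and 3.24 in early Ctrl, 4.27, 4.12 and 4.16 in long-term Ctrl (difference 0.35, SE 0.080, limma adjusted p = 0.042), 4.24 and 4.05 in early and 4.51, 4.30 and 4.27 in long-term Tet iTKO. The early genotype difference in that bin was 0.34 (limma adjusted p = 0.23).

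Of the other called bins, the one at bases 7596043 to 7645999, with no protein-coding gene, had relative depths of 0.941 and 0.886 in early Ctrl and of 1.13, 1.14 and 1.26 in long-term Ctrl (log2 difference 0.36, limma adjusted p = 0.048; 0.092 with a GC correction and 0.051 with scaling to the autosomal mean). The bin at bases 151161398 to 151211471, which overlaps the predicted genes Gm47985, Gm8947, Gm47995 and Gm47996 and 3110040M04Rik, had 1.06 and 1.09 in early Ctrl and 1.42 and 1.43 in early Tet iTKO (log2 difference 0.40, limma adjusted p = 0.047). It was at 1.29 to 1.36 in long-term Ctrl and at 0.732 in Dnmt TKO.

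**Figure D5:**
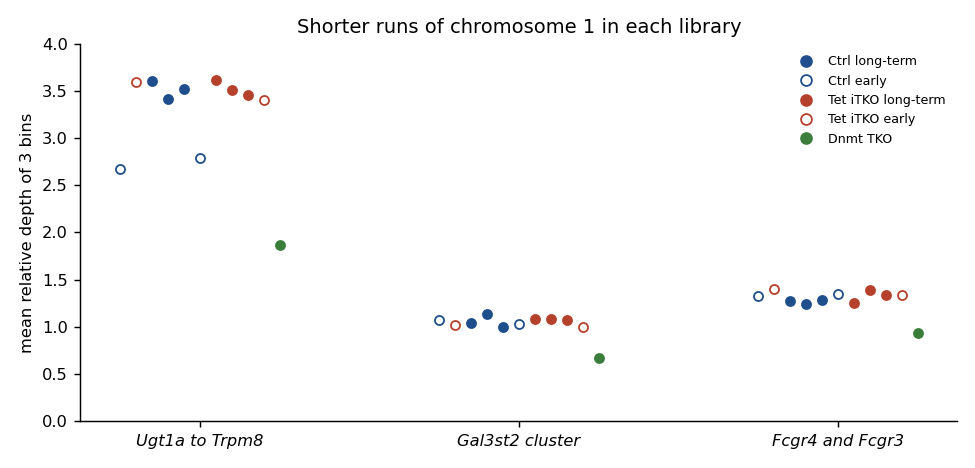
Mean relative depth of 3 neighbouring bins (y axis) at the shorter runs of chromosome 1 (x axis), with 1 point per library, filled for long-term and open for early libraries. Dnmt TKO is the lowest point at all 3 places, and the 2 early Ctrl libraries are the next lowest at Ugt1a to Trpm8 only.

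Runs of at least 3 neighbouring bins, all at or beyond 0.25 on the same side, gave the same picture by library. None were seen on chromosome 1 in the long-term Ctrl libraries, in the other long-term Tet iTKO clones or in early Tet iTKO, among 0 to 11 runs on all autosomes in each of these libraries. The long-term Ctrl libraries had 0 runs on all autosomes, and their ratios are narrower because they are also the reference. Replicate 2 had 2 of its 10 autosomal runs on chromosome 1, the stretch to the left and to the right of the mitochondrial copy, with means of -0.85 over 30 bins and -0.82 over 145 bins. The pre-treatment and acute Ctrl libraries had 1 run each, at bases 88197240 to 88347246, with means of -0.39 and -0.33. Dnmt TKO had 3 of its 147 runs on chromosome 1, all lower. The 147 were counted over all autosomes, among them an autosome with a median log2 ratio of 0.412 in this library.

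In Dnmt TKO the deepest of these runs was at the same bases 88197240 to 88347246, at -0.89, where the mean relative depth was 1.86 against 3.61, 3.41 and 3.52 in long-term Ctrl. A run at bases 93847519 to 93997526, at -0.65, covers Gal3st2, Gal3st2b and Gal3st2c, sulfotransferases for galactose, and the end of D2hgdh, a hydroxyglutarate dehydrogenase. The mean relative depth there was 0.668 against 1.00 to 1.13 in the 10 other libraries. A run at bases 170981410 to 171131537, at -0.40, covers Fcgr4 and Fcgr3, receptors for the Fc part of antibodies, and had 0.938 against 1.24 to 1.40.

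Single bins of Dnmt TKO departed further. With 1 library there is no test, and of the 3838 bins 25 were at -0.4 or lower and 3 at 0.4 or higher, together 0.730%, against 4.64% of all autosomal bins in this library. The 4.64% includes an autosome whose median log2 ratio was 0.412, itself past 0.4. It is therefore no measure of short changes elsewhere, and the share without that autosome was not computed. At bases 109748306 to 109798307, with no protein-coding gene, the relative depth was 0.105, while the other libraries had 0.816 to 1.03 (log2 ratio -3.05). At bases 171531880 to 171581922, which overlap Itln1, a lectin, and Cd244a, a receptor of natural killer cells, it was 3.07 against 0.984 to 1.19 (1.51), and the bin before it had 1.56 against 0.892 to 1.07 (0.63). At bases 173933934 to 173983976, with Mndal, Ifi203 and Ifi202b of the interferon-inducible family of DNA sensors, it was 1.90 against 0.948 to 1.13 (0.87). The strain origin of the Dnmt TKO line was not given in the sources used here, and its part in these values was not tested.

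In the other libraries few bins outside the stretch were past 0.4 in either direction. There were 4 in the pre-treatment and 4 in the acute Ctrl library, 3 and 0 in the corresponding Tet iTKO libraries, and 3, 1 and 3 in long-term Tet iTKO replicates 1, 2 and 3. Over all autosomal bins, the shares past 0.4 were 0.119% and 0.115% in pre-treatment and acute Ctrl, 0.129% and 0.111% in pre-treatment and acute Tet iTKO, and 0.127%, 0.551% and 0.148% in the 3 long-term Tet iTKO replicates. Replicate 2 had 173 such bins on chromosome 1, 172 of them in the stretch.

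The gene lists chosen for chromosome 1 were read at the same threshold of 0.25. The KH-domain genes Khdc1a, Khdc1b and Khdc1c, left of the stretch at bases 21349641 to 21386373, had log2 ratios of -0.20 to 0.14 in all 11 libraries. Of 11 genes for chromosome segregation, 10 were matched, and they ranged from -0.25 to 0.24. Only 1 of them, Cenpl, a subunit of the inner kinetochore, was beyond 0.25 in a library, narrowly, at -0.251 in acute Tet iTKO. All 7 genes for DNA repair and damage response, among them Parp1 and Exo1, lay between -0.16 and 0.20. Of 17 genes of multicopy families, 15 were matched and 5 passed 0.25 in a library. All 5 did so in Dnmt TKO, with log2 ratios of -0.99 for Ugt1a1, 0.87 for Ifi202b, 0.53 for Ifi203, -0.26 for Ifi204 and -0.26 for Fcgr4, and Ugt1a1 also in early Ctrl. Ifi204 and Fcgr4 rested on 1 bin each, and single chromosome 1 bins of Dnmt TKO had an SD of 0.142. The share of all chromosome 1 genes past 0.25 in a library was not counted, so the list counts have no background to be read against. Sp140 was at a relative depth of 2.23 to 2.49 in every library.

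The bins with the lowest mean depth on the chromosome were at 0.799 (bases 187902816 to 187952802, in Esrrg, an orphan nuclear receptor), 0.799 (bases 169229912 to 169279954) and 0.808 (bases 124749048 to 124799049). No bin of chromosome 1 was close to 0 in the mean of the libraries.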

How the data were processed

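Per the methods, single-end reads of at least 70 bp had been mapped by the authors to mm10 with BWA-mem, and duplicates had been removed with Picard. The submitters' processing notes also list BSMAP 2.74v, which the methods give for another assay. The deposited depth is mean coverage per bin of about 50 kb, a signal scaled to nothing. A deposited log2 column by the authors equalled log2 of that depth to within 4.05e-05 and was not used. Depth times length was a multiple of 50 bases in 95.4% of 3432 low values, so reads were counted as bases over 50. This step differs from the stated minimum of 70 bp, the reason is not given in the sources used here, and with longer reads the read numbers would be lower and the counting noise higher.

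Depth was divided by the autosomal median of the library. Bins of 25000 bases or more with a mean relative depth of 0.25 or more were kept, which all 47924 autosomal bins were. The log2 of relative depth plus 0.01 was fitted with limma 3.58.1 (R 4.3.3; lmFit, eBayes, Benjamini-Hochberg over all autosomal bins), with 6 long-term libraries, or with 4 groups (early and long-term of each genotype). Chromosome 1 medians and flanks were compared with exact two-sided permutation tests. The stretch and groups of 1 library were described without a test. The mitochondrial genome was searched with blastn 2.17.0. Python 3.11.15, numpy 2.4.6, pandas 2.3.3 and statsmodels 0.14.6 (GC lowess) were used.

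The members, gene lists and regions were chosen with earlier results of these data known. Named were every chromosome 1 run, the called bins, the 3 deepest and 3 shallowest bins, all protein-coding genes of the stretch and within 1 Mb, and the listed genes. Kcnq5, Prim2, the miRNAs, the genes of the runs other than Ugt1a1 and Fcgr4, the border bins and the most extreme Dnmt TKO bins were added after seeing values. Simulated data for the long-term comparison held 200 changed bins among 47924, changed by 0.4 or 0.8 in every Tet iTKO library, with counting noise only. Of the bins changed by 0.4, 96% were recovered, and 100% of those changed by 0.8, with 10 false calls. A change in a single library, like that of the stretch, was not simulated, so these shares do not apply to it. The 6 pairs of long-term libraries of one group differed by a chi-square per degree of freedom of 0.993 to 1.04 over chromosome 1 bins outside the stretch. That is the value of separately drawn reads, so none was counted with another. It cannot show whether the libraries came from separate clones. Same-numbered long-term libraries did not deviate together (r of 0.0010, -0.0051 and 0.0019 across bins).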

Additional observations from a re-analysis of the deposited data

Results flagged for a closer look

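Between pre-treatment and acute libraries, 2 chromosome 1 values moved in opposite directions in the genotypes. The median log2 ratio of the chromosome changed by 0.0080 in Ctrl and by -0.00055 in Tet iTKO, and the left flank of the stretch by 0.016 in Ctrl and by -0.0045 in Tet iTKO. Each value rests on 1 library per stage, and the difference was not tested.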

How the results depend on the processing

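The depth behind a bin, a median of 215 to 314 reads, limits what single bins show, and 1 library per early stage and genotype leaves no replicate error. The chromosome median and flank differences kept their direction under all alternatives run. With the replicate block as a sign-flip test, exact p was 0.25 for the median (-0.0065), 0.25 for the left flank (-0.023) and 0.5 for the right flank (0.013), and the smallest p that 3 pairs allow is 0.25. The first and last lowered base were unchanged by the threshold of -0.25 and the running median, although a bin past the right border, at -0.2493, missed that threshold narrowly. The mean of the interval of 181 bins in Tet iTKO long-term replicate 2 was -0.81, and -0.79 to -0.82 with the median over bins, the GC correction, scaling to the flanks or the reference of 5 Ctrl libraries. Over the lowered bins only it was -0.82, and without the bin of the mitochondrial copy -0.83, both alternatives chosen after seeing the data.

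The 3 chromosome 1 bins called between the long-term groups became 0 with a variance trend and robust fit, 2 with the GC correction, 16 with a replicate block, 5 with all 10 libraries in the fit and 0 in windows of 500 kb, and 0 to 48 when 1 library was left out: 0 without each Ctrl library or without Tet iTKO replicate 2, 27 without Tet iTKO replicate 1 and 48 without Tet iTKO replicate 3. The 3 bins called in Ctrl between stages became 5 with the trend and robust fit, and 0 to 3 when 1 library was left out (0 without Ctrl replicate 1 or 3, 1 without Ctrl replicate 2). The 0 bins called in Tet iTKO between stages became 1 with the GC correction, and 0 to 18 (13 without Tet iTKO replicate 1, 18 without replicate 3). The 2 bins called between early genotypes became 3 with the trend and robust fit, and 1 to 2 when 1 library was left out. The 0 bins for the change of the genotype difference became 2 with the trend and robust fit, and 0 to 5 (3, 1 and 5 without Tet iTKO replicates 1, 2 and 3). Fewer libraries in the fit reduce the residual degrees of freedom, and the cause of the other changes was not tested.

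Chromosome 1 runs became 5 at a threshold of 0.4 and 1 with bins of mean relative depth 0.5 to 1.5 in Tet iTKO long-term replicate 2. In the pre-treatment and acute Ctrl libraries the run was lost, to 0, at 0.4, with 5 bins, with the reference of 5 Ctrl libraries and with bins of 0.5 to 1.5. In Dnmt TKO they became 0 with 5 bins and 1 with bins of 0.5 to 1.5, which leave out the deep bins from Ugt1a to Trpm8 by construction.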
